A study of Mus musculus with 15 samples.

Results

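Heat shock chaperones are the subject of this section: 10 genes chosen by name for the part that Hsp70 proteins play in erythroid cells, out of 55487 mouse genes in the deposited tables. They are the stress-inducible Hsp70 pair Hspa1a and Hspa1b, the constitutive cytosolic Hsp70 Hspa8, the mitochondrial Hsp70 Hspa9, the Hsp70 of the endoplasmic reticulum Hspa5, the Hsp90 genes Hsp90aa1 and Hsp90ab1, the Hsp40 co-chaperone Dnajb1, the small heat shock protein Hspb1 and the transcription factor Hsf1. All 10 were found by symbol in both tables.

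The transcriptomes were those of erythroid progenitors of the fetal liver at embryonic day E12.5, on the mouse strain 129S6/SvEvTac, wildtype or mutant for the ribosomal protein gene Rpl5, in a series on Diamond Blackfan anemia. Group 1 of mice comprised 3 libraries labelled WT and 3 labelled M, with polyA RNA given as the molecule. Group 2 comprised 3 wildtype libraries, 3 mutant libraries and 3 that the labels call low-yield mutants, with total RNA given as the molecule. The sample information of group 2 gives the genotype of both kinds of mutant as Rpl5plusSkax23Jus, and that of the others as wildtype. What low-yield refers to was not given, and no label says how many embryos a library pooled or whether libraries came from separate animals, so p-values measure the spread between these libraries, which may be partly technical. Because the molecule differed, levels were compared within a group of mice and never between the groups.

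Hsp70 proteins bind short hydrophobic stretches of unfolded proteins and release them in an ATP-driven cycle. Hsp40 proteins such as Dnajb1 deliver the substrate and start the cycle, and Hsp90 receives part of the folded intermediates. When unfolded protein accumulates, Hsf1 is freed from chaperones, forms trimers and binds heat shock elements, arrays of the unit GAA in alternating orientation, upstream of inducible genes. In maturing erythroid cells Hsp70 protein in the nucleus shields the transcription factor Gata1 from cleavage, and a loss of Hsp70 protein has been described in human erythroid cells short of RPL5 or RPL11. The present data are of RNA and do not measure these proteins.

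The Hspa1 pair is shown first, because its libraries carry the widest spread among the members. On GRCm38, Hspa1a (ENSMUSG00000091971) lies on chromosome 17 at 34969190 to 34972156 and Hspa1b (ENSMUSG00000090877) at 34956436 to 34959238, both with 1 transcript on the reverse strand and 9951 bp apart. Hspa1a overlaps the annotated gene Gm20481 on the opposite strand, and reads of both could not be told apart if strand was not used in counting. The 250 bases upstream of each start, at chr17:34972157-34972406 and chr17:34959239-34959488, and those upstream of Hspb1, at chr5:135887669-135887918 on the forward strand, are given 5′ to 3′ from the RefSeq promoter table of build GRCm38.p6. Capitals mark each GAANNTTC, a pair of facing heat shock units, searched on both strands.
Hspa1a: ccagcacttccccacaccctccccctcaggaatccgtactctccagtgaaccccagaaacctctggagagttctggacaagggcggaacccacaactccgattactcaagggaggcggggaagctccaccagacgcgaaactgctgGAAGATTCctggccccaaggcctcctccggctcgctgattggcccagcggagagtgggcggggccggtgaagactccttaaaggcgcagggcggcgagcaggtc
Hspa1b: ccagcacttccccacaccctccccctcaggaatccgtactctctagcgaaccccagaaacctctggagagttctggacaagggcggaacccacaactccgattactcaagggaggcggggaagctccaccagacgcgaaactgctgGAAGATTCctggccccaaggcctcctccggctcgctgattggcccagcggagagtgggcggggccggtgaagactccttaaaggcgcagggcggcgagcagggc
Hspb1: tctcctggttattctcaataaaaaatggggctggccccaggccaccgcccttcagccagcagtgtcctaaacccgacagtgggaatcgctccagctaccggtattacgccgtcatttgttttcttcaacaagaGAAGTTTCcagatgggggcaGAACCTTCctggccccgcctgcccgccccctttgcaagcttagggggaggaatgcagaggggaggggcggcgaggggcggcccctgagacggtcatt
The Hspa1a and Hspa1b stretches were identical at 247 of 250 bases. The differences were C44T, T47C and T249G, with the base of Hspa1a first and positions counted from 1 at the 5′ end. Both carried GAAGATTC at -104 to -97 from the start, and Hspb1 carried GAAGTTTC at -117 to -110 and GAACCTTC at -97 to -90. Of the 32851 promoters in the table, each with 250 bases before and 50 after the start, 7.86% held GAANNTTC. The table held 5 of the 10 members, and the others with an entry were Dnajb1 and Hspa5, which held no GAANNTTC. The other order of the units, TTCNNGAA, was found in 8.52% of all promoters and in 0 of these 5. Hspa5 held the endoplasmic reticulum stress element, ER stress element for short, which is CCAAT and CCACG spaced by 9 bases, as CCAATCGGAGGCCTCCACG at -65 to -47. That motif was found in 0.119% of all promoters. These matches describe letters in the window and were not tested as binding sites.

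Reads are hard to divide between the Hspa1 genes. Of the 151-base windows of the transcripts, the length of 1 sequencing read, 39.5% of those of Hspa1a and 40.3% of those of Hspa1b occur in another gene, 1069 of them shared between the pair. The deposited values are expected counts, in which such reads are divided by estimate. The share of Hspa1a among the counts of the pair ranged from 11.7% (95% exact binomial interval 10.1% to 13.4%, 1548 counts) in group 2 wildtype replicate 3 to 43.5% (43.0% to 44.1%, 28384 counts) in group 1 wildtype replicate 3; the intervals cover counting error only. The centred log2 levels of both genes had a Pearson r of 0.97 over the 15 libraries, which share reads between the genes. Each gene is therefore given beside the sum of both.

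Libraries held 48510828 to 58513669 counts in group 1 and 24954324 to 44827821 in group 2, and levels below are CPM, the counts of a gene per 1000000 counts of its library's TMM-adjusted total. Rpl5 itself, the check of the labels, was at 656 to 744 CPM in wildtype against 520 to 570 in mutant libraries of group 1, and at 303 to 374 in wildtype, 232 to 248 in mutant and 219 to 278 in low-yield mutant libraries of group 2. Wildtype and mutant libraries did not overlap. All 13 erythroid markers found in the tables were detected in every library, Gata1 and Epor among them. Their summed level was lower in mutants, at 2790 to 2973 CPM against 4090 to 6346 in wildtype in group 1, and at 3690 to 4123 in mutants and 3348 to 4399 in low-yield mutants against 4831 to 7784 in wildtype in group 2. Of these 13 markers, 9 were called lower and 1 higher in group 1, 3 lower and 2 higher in the group 2 mutant and 6 lower and 2 higher in the low-yield mutant; of all tested genes 12.6%, 6.27% and 1884 of 15024 were called in these comparisons. Those with the smallest p, given here and below with log2 fold changes in parentheses, were the globin gene Hbb-bt, lower (-1.97), and the receptor Kit, higher (0.30), in group 1. In group 2 they were the factor Klf1, lower in the mutant (-0.48) and the low-yield mutant (-0.61), with Kit higher in the mutant (0.47) and the embryonic globin Hbb-bh1 higher in the low-yield mutant (1.68).

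The sum over 8 granulocyte markers ranged from 74.9 to 588 CPM in wildtype and 202 to 1114 in mutants of group 1, and from 14.2 to 28.3 in wildtype, 100.2 to 197 in mutants and 139 to 293 in low-yield mutants of group 2. Of these 8, 0 were called in group 1, 5 were higher in the group 2 mutant, with Elane of the smallest p (2.43), and all 8 in the low-yield mutant, with Camp of the smallest p (3.28). Hepatocyte markers summed to at most 85.5 CPM; 3 of 10 were called lower in group 1, led by Alb (-2.29), with a median of -1.59, and 0 in group 2. Macrophage markers summed to at most 80.7 CPM. Of 5 tested, only Lyz2 was called, higher in the group 2 mutant (2.56) and the low-yield mutant (3.82). Adgre1 (3.95 and 3.03) and Vcam1 (1.94 and 2.60) were above 0 in these comparisons and not called. Csf1r (-0.65 and 0.54) and Cd68 (-0.10 and -0.02) were not called either. Endothelial markers summed to 0.896 to 1.898 CPM in wildtype, 3.56 to 5.87 in mutants and 6.45 to 10.01 in low-yield mutants of group 2, and 1 of 4 tested was called higher in the group 2 mutant and 3 of 4 in the low-yield mutant, each time led by Pecam1 (1.79 and 2.58). Megakaryocyte markers summed to 23.6 to 50.8 CPM. Of these, 1 of 7 was called lower in group 1, Vwf (-0.67), 1 of 6 higher in the group 2 mutant, Itga2b (0.77), and 3 higher and 1 lower of 6 in the low-yield mutant, led by Itga2b (1.62) and Vwf (-0.63). Of the 5 lymphocyte genes only Ptprcap was tested and called higher in group 1 (1.02), while Cd3e was at 0 in all libraries. With both groups of mice in 1 fit the same rule gave Kit, Klf1, Pecam1, Itga2b, Vwf and Ptprcap again, and the macrophage gene Vcam1, higher (1.14, adjusted p 0.0487 by edgeR). Less RNA per cell and fewer cells of a kind cannot be told apart in such bulk samples. The part of these shifts in the results on chaperones was not tested.

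Hspa1a and Hspa1b, whose products are the heat-inducible cytosolic Hsp70 proteins, varied widely between libraries of the same genotype. In group 1, Hspa1a was at 0.464, 0.923 and 212 CPM in wildtype replicates 1 to 3 and at 1.78, 99.8 and 104 CPM in mutant replicates 1 to 3. Hspa1b was at 3.05, 5.23 and 274 CPM in wildtype and at 7.33, 153 and 165 CPM in mutant replicates. The highest library was wildtype and the 2 lowest were wildtype, so the genotypes overlapped entirely. Summed over both genes, the lowest and highest libraries of group 1 were 138-fold apart, from 3.52 to 486 CPM. The within-group SD of log2 CPM was 4.13 for Hspa1a and 3.09 for Hspa1b, rank 4 and rank 9 from the top among 14048 tested genes, whose median SD was 0.148.

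**Figure D1:**
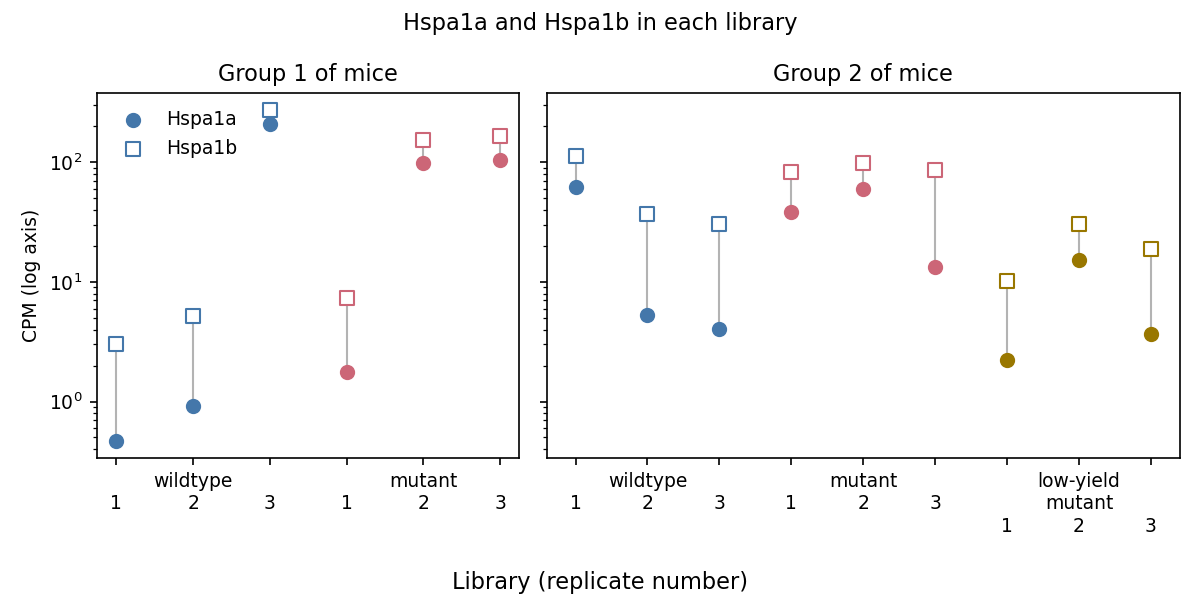
CPM of Hspa1a (filled circles) and Hspa1b (open squares) on a log axis in each library, by replicate number; grey lines join the 2 genes of a library. In group 1 the pair is low in wildtype replicates 1 and 2 and mutant replicate 1, and high in wildtype replicate 3 and mutant replicates 2 and 3.

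In group 2 the pair spanned a smaller range, 14.3-fold, from 12.3 to 176 CPM summed. Hspa1a was at 62.6, 5.29 and 4.03 CPM for wildtype, 38.2, 60.4 and 13.4 for mutant and 2.24, 15.2 and 3.69 for low-yield mutant libraries 1 to 3. Hspa1b was at 114, 36.8 and 30.5 CPM for wildtype, 84.0, 99.7 and 87.2 for mutant and 10.1, 30.8 and 19.0 for low-yield mutant libraries. Wildtype replicate 1 was the highest library for both genes, and low-yield replicate 1 the lowest. For Hspa1b the 3 mutant libraries lay close together and above all 3 low-yield libraries. The within-group SD ranked 107 of 15024 for Hspa1a (1.63) and 1975 for Hspa1b (0.76), against a median of 0.203.

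Neither gene was called in any comparison by edgeR's quasi-likelihood test with Benjamini-Hochberg adjustment over all tested genes. In group 1 the log2 fold change, mutant against wildtype, was -0.06 for Hspa1a (adjusted p 0.990, SE 2.27, 95% interval -6.28 to 6.17) and 0.20 for Hspa1b (adjusted p 0.965, SE 2.04). Without wildtype replicate 3 these values were 6.62 and 4.71, with adjusted p 0.285 and 0.281, so 1 library decided their size. In group 2 the log2 fold change of the mutant was 0.66 for Hspa1a (adjusted p 0.826, SE 1.20) and 0.59 for Hspa1b (adjusted p 0.659, SE 0.59), and without wildtype replicate 1 it was 3.00 and 1.44. The intervals leave room for large differences in either direction, and the data do not show that wildtype and mutant levels were alike.

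Low-yield mutants had the lowest Hspa1b levels of group 2 on average, 19.95 ± 10.4 CPM (SD, n = 3) against 90.3 ± 8.29 in mutants and 60.4 ± 46.5 in wildtype. Against mutants the log2 fold change was -2.18 (SE 0.63), with an unadjusted p of 0.0129 in edgeR's model across all genes and an adjusted p of 1.00. Against wildtype it was -1.59 (adjusted p 0.173, SE 0.63), and without wildtype replicate 1 it was -0.74. Hspa1a gave -2.41 against mutants (SE 1.35) and -1.75 against wildtype (SE 1.37), and the latter was 0.59 without wildtype replicate 1. With the counts of both genes added before the fit, group 1 gave a log2 fold change of 0.10 (SE 2.21), the group 2 mutant 0.60 (SE 0.75) and the low-yield mutant -1.64 (adjusted p 0.260, SE 0.79).

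The other members and the inducible heat shock genes had narrower spans. Centred on the mean of their own group on the log2(CPM + 0.5) scale, the libraries of Hspa1a spanned 8.66 and those of Hspa1b 6.85. The span was 0.22 to 0.57 over the other 7 tested members. It was 0.24 to 0.81, with a median of 0.43, over 13 of the 16 genes of a list of inducible heat shock genes, which are targets of Hsf1. Of the 3 genes not counted there, Serpinh1 had 1 to 56 counts and at most 0.959 CPM with a span of 0.88, and Hspb8 and Cryab had at most 17 and 5 counts with spans of 0.66 and 0.26. Hspa2, a further Hsp70, had the widest span of the 13. Hsph1, the Hsp110 partner of Hsp70, was at 353, 402 and 453 CPM in group 1 wildtype and at 349, 413 and 433 CPM in group 2 wildtype replicates. In group 1 the wildtype library highest in the Hspa1 pair was also highest in Hsph1, and in group 2 the wildtype library highest in the pair was lowest in Hsph1. Within the 6 libraries of group 1, which fall into 3 low and 3 high in the pair, genes ran with or against the sum of the pair on a smaller scale. Among the other 7 tested members Pearson r there was 0.91 for Dnajb1, 0.38 for Hsp90ab1, 0.11 for Hsp90aa1, 0.09 for Hsf1, -0.39 for Hspa9, -0.72 for Hspa5 and -0.75 for Hspa8. Within the 9 libraries of group 2 these members had -0.68, -0.14, 0.12, 0.23, 0.63, 0.69 and -0.37, so the sign differed between the groups of mice for Dnajb1, Hsp90ab1, Hspa9 and Hspa5. Among the 13 inducible genes, r in group 1 was highest for Hsph1 (0.87), Hspa4l (0.83), Dnajb4 (0.83) and Dedd2 (0.82). It was lowest for Ahsa1 (-0.74). In group 2 these 5 had -0.43, -0.19, -0.53, -0.38 and 0.09. Hspa2 had 0.44 in group 1 and 0.48 in group 2, and its r over the 15 libraries, 0.40, was the highest of the 13. These values are descriptions without a test.

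**Figure D2:**
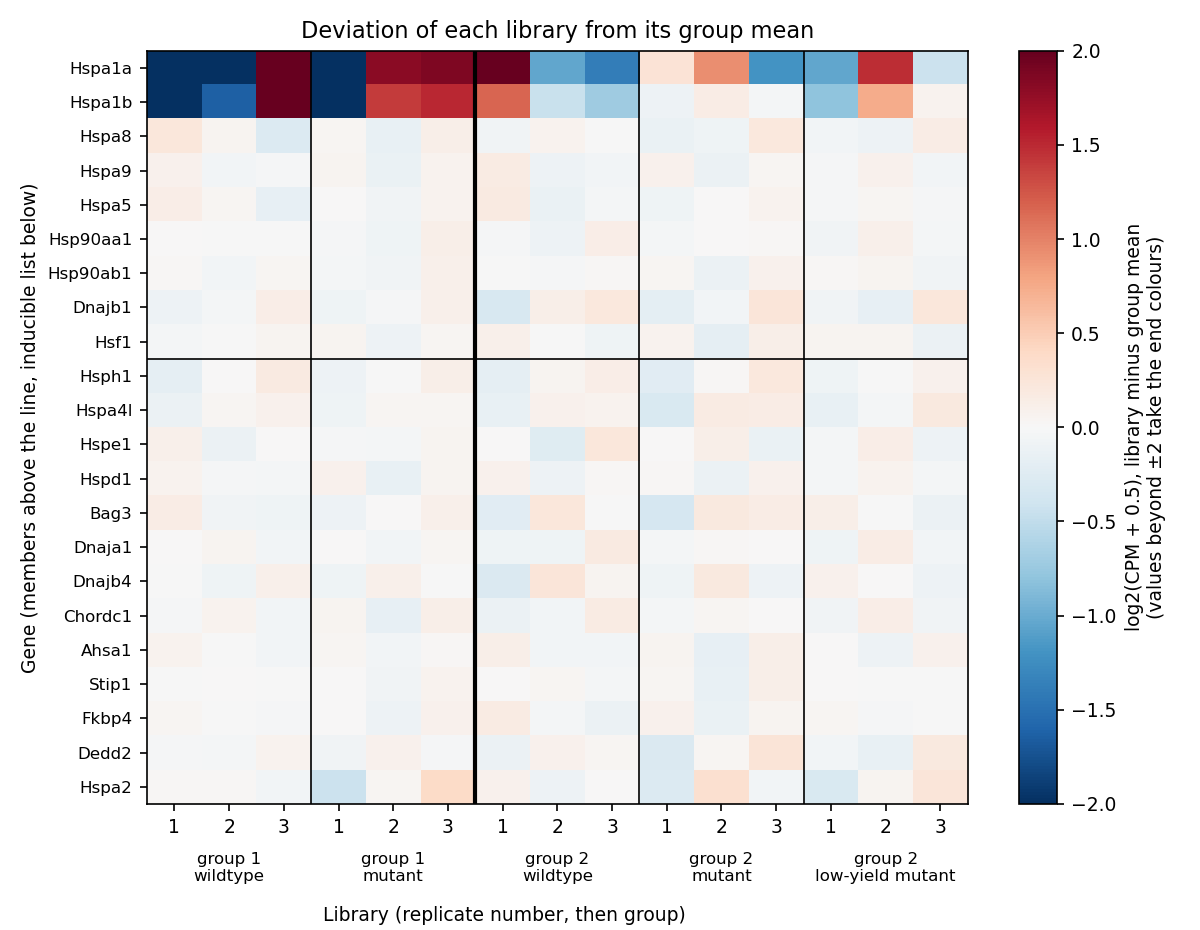
Deviation of each library from the mean of its group, as log2(CPM + 0.5), for 9 members (above the line) and 13 inducible heat shock genes (below), with libraries in columns by group and replicate. The Hspa1a and Hspa1b rows reach the end colours at ±2, and every other row stays within ±0.5.

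Jun, an immediate early gene induced by stress and handling, was singled out after its values were seen. It was at 3.07, 2.94 and 18.8 CPM in wildtype and 6.01, 9.25 and 19.8 CPM in mutant replicates of group 1. Levels in group 2 were 33.1, 3.81 and 4.88 CPM in wildtype replicates, against 14.2 to 17.1 in mutants and 10.1 to 15.2 in low-yield mutants. The wildtype library highest in the Hspa1 pair was also the wildtype library highest in Jun in each group of mice. Over the whole list of 21 immediate early genes the summed level ranged from 118 to 169 CPM in wildtype and 135 to 169 in mutants of group 1, and from 217 to 377 in wildtype, 268 to 302 in mutants and 255 to 300.3 in low-yield mutants of group 2. Fos was at most 4.55 CPM and Atf3 at most 0.178. Of the list, 1 of 16 tested genes was called in group 1, 2 of 15 in the group 2 mutant and 4 of 15 in the low-yield mutant. Dusp1, a phosphatase of MAP kinases, fell in all 3, by 0.65, 0.69 and 0.86 on the log2 scale (adjusted p 0.0244, 0.00886 and 0.00107 by edgeR). Fosl2 rose in the group 2 mutant (1.298, adjusted p 0.0185) and the low-yield mutant (1.72, adjusted p 0.00113), and Egr1 (1.14, adjusted p 0.0104) and Rhob (0.83, adjusted p 0.045) rose in the low-yield mutant. In the fit of both groups of mice the leading genes were Dusp1, lower, and Egr1, higher. The part of sample handling in the level of the pair was not tested.

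Of 9015 genes with a mean of at least 5 CPM in both tables, the 5 whose centred log2 levels were most like the sum of the Hspa1 pair were Usp22, Ccdc91, Sccpdh, Inppl1 and Nedd4l. Their Pearson r over the 15 libraries was 0.93, 0.90, 0.89, 0.89 and 0.88, and without the 2 libraries farthest from the median it was 0.87, 0.83, 0.80, 0.77 and 0.78. Within the 9 libraries of group 2 it was 0.90 for Usp22, a deubiquitinase of the SAGA complex, and 0.85 for Ccdc91, but 0.41 for Inppl1. The libraries of group 1 fall into low and high ones in the pair, so most of the likeness there rests on 3 against 3 libraries. Usp22 moved far less than the pair, from 31.7 to 42.6 CPM in group 1 and from 42.2 to 60.2 CPM in group 2. These are descriptions of the highest values among many and carry no test.

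Per length of the longest coding transcript, the cytosolic chaperones Hsp90ab1, Hsp90aa1 and Hspa8 led in every group, followed by Hspa9 and Hspa5. In group 1 wildtype libraries Hsp90ab1 was at 1796 ± 60.9 CPM per kb (SD, n = 3), Hsp90aa1 at 1308 ± 10.6, Hspa8 at 1078 ± 186, Hspa9 at 355 ± 17.9 and Hspa5 at 112 ± 11.7. Below them came Hspa1b (33.6 ± 55.7 CPM per kb), Hsf1 (32.1 ± 1.03), Dnajb1 (27.7 ± 2.301) and Hspa1a (23.9 ± 41.1), of which the Hspa1 pair could not be placed in the order because its libraries ran from below to above the other 2. In group 2 wildtype libraries the order was Hsp90ab1 (1460 ± 25.2), Hspa8 (1129 ± 53.9), Hsp90aa1 (617 ± 49.8), Hspa9 (249.04 ± 25.04) and Hspa5 (96.6 ± 10.7), with no overlap between neighbours. Hsf1 (39.1 ± 2.72) and Dnajb1 (34.4 ± 6.43) followed and overlapped. In group 1 wildtype replicate 3, Hspa1b reached 97.9 CPM per kb, close to the 99.6 of Hspa5 in the group's lowest library for that gene. The windows of Hspa8 and Hsp90aa1 are shared with other genes, mostly pseudogenes, at 55.3% and 36% of 151-base windows, so their levels are less certain than those of Hsp90ab1, Hspa9, Hspa5, Dnajb1 and Hsf1, for which no window was shared.

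**Figure D3:**
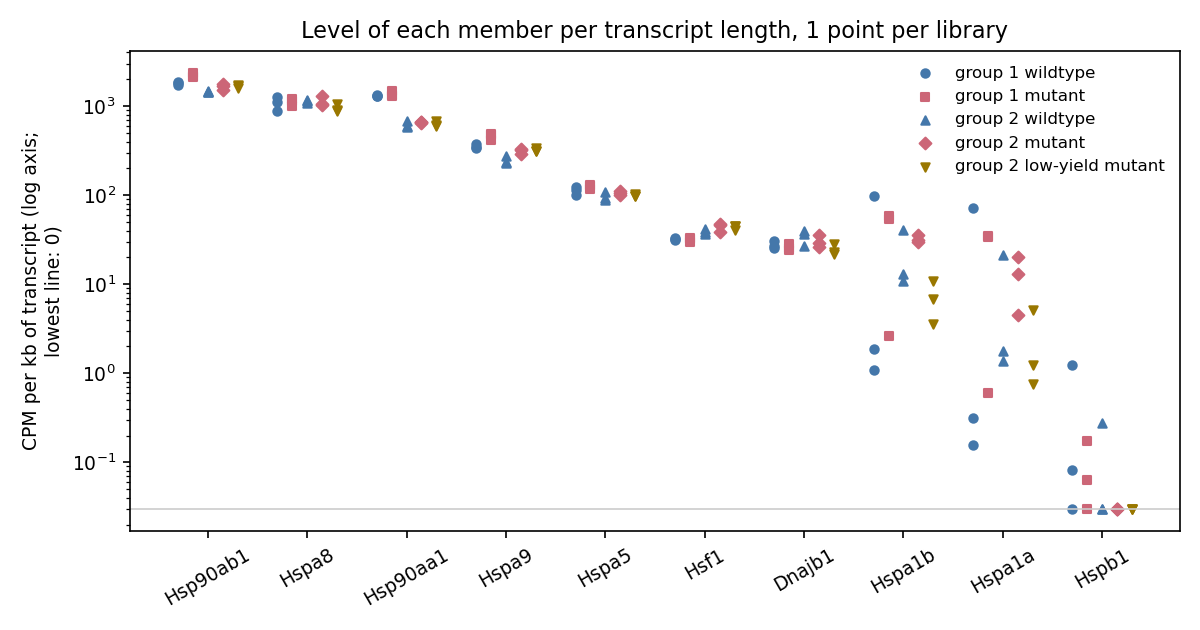
CPM per kb of the longest coding transcript, on a log axis, for the 10 members, 1 point per library and 1 marker per group; points on the lowest line are 0. The Hsp90 genes and Hspa8 lie highest, and Hspa1b, Hspa1a and Hspb1 have the widest columns of points.

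Hspa9, the mitochondrial Hsp70 (mortalin), which drives protein import into the matrix and takes part in iron-sulfur cluster assembly, rose in mutants of both groups of mice. On GRCm38 it lies on chromosome 18 at 34937414 to 34954357, reverse strand. In group 1 it was at 1143, 1039.5 and 1062 CPM in wildtype and 1454, 1274 and 1464 CPM in mutant replicates. The group 2 libraries had 846, 704 and 727 CPM for wildtype, 1012, 873 and 973 for mutant and 962, 1034 and 945 for low-yield mutant libraries. All mutant libraries of either kind lay above all wildtype libraries of their group. The log2 fold change was 0.37 in group 1 (adjusted p 0.00607, SE 0.07), 0.33 for the group 2 mutant (adjusted p 0.0383, SE 0.09) and 0.37 for the low-yield mutant (adjusted p 0.0125, SE 0.09) in edgeR's test. Over both groups of mice, with the group as a term, it was 0.35 (adjusted p 4.47e-04, SE 0.06). In group 2 the call was lost for the mutant without any 1 of 7 of the 9 libraries, all but wildtype replicate 1 and mutant replicate 2, with adjusted p of 0.051 to 0.177, and with only the 6 compared libraries in the fit (0.0768). For the low-yield mutant it was lost without wildtype replicate 2 or 3 or low-yield replicate 1 or 2 (0.0502 to 0.0804). The estimate stayed between 0.27 and 0.46 in these 3 comparisons under all alternatives.

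Hsp90ab1, the constitutive cytosolic Hsp90, lies on chromosome 17 at 45567775 to 45573271 of GRCm38, reverse strand. In group 1 it was at 4583, 4352 and 4643 CPM in wildtype and 5452, 5302 and 5991 CPM in mutant replicates, with no overlap. It rose with a log2 fold change of 0.30 (adjusted p 0.0130, SE 0.07, edgeR), a call that was lost without wildtype replicate 2 (0.069) or mutant replicate 3 (0.0743). In group 2 it was at 3666, 3623 and 3748 CPM for wildtype, 4286, 3853 and 4409 for mutant and 4288, 4362 and 3988 for low-yield mutant libraries, again with no overlap between wildtype and either kind of mutant. The log2 fold changes of 0.19 (adjusted p 0.185, SE 0.08) and 0.20 (adjusted p 0.117, SE 0.08) did not pass there, except with voom and quality weights (0.0183 and 0.0133). Over both groups of mice the rise was 0.24 (adjusted p 0.00226, SE 0.05). Hsp90aa1, the stress-responsive Hsp90 on chromosome 12 at 110690605 to 110702728, reverse strand, gave 0.06 in group 1 (adjusted p 0.625, SE 0.07) and 0.09 and 0.03 in group 2, with overlapping libraries.

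**Figure D4:**
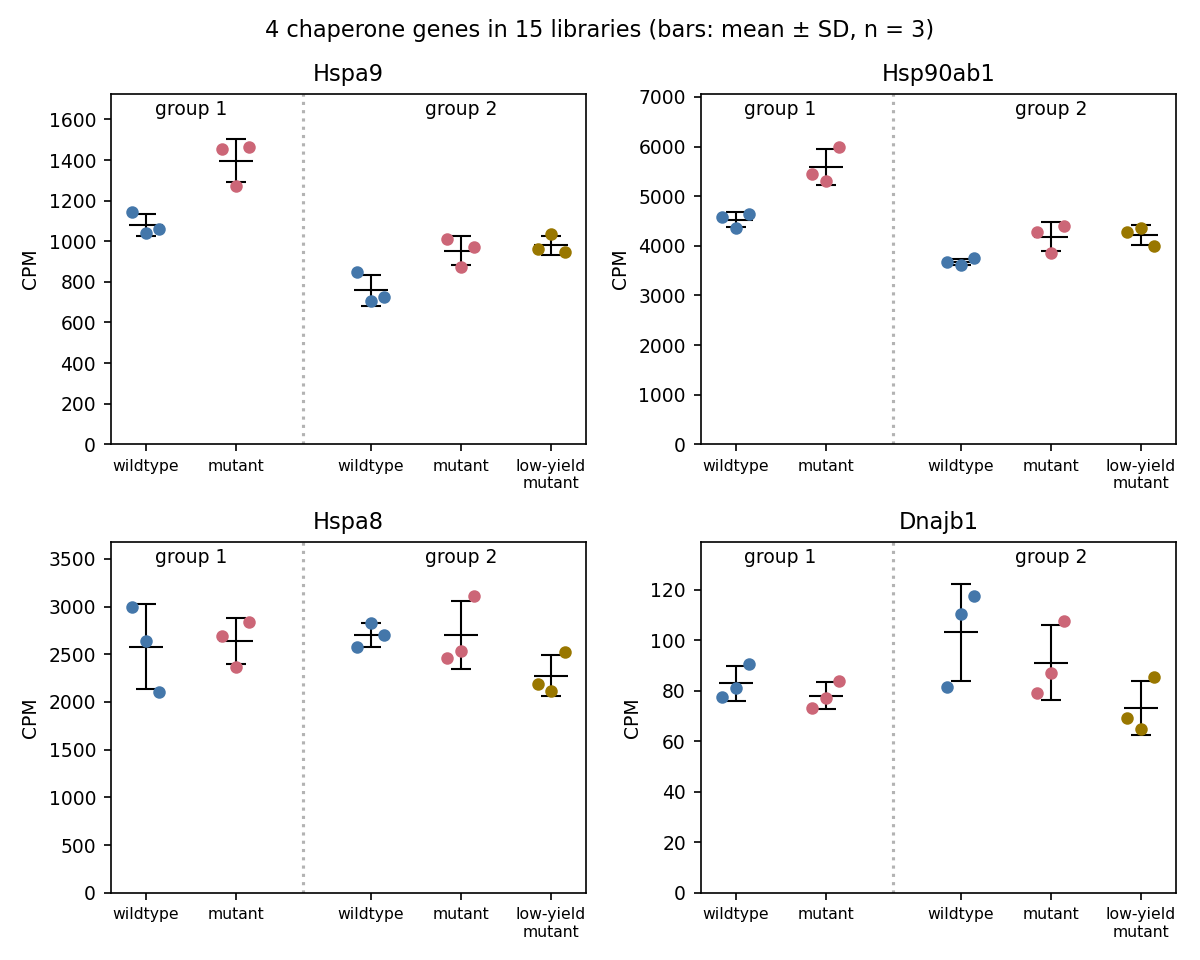
CPM of Hspa9, Hsp90ab1, Hspa8 and Dnajb1 in each of 15 libraries (points) with mean ± SD of each group (n = 3), on axes from 0; the dotted line divides the groups of mice. Mutant and wildtype libraries do not overlap for Hspa9 and Hsp90ab1 in either group of mice.

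Hspa5, known as BiP, is the Hsp70 of the endoplasmic reticulum that also holds the sensors of the unfolded protein response inactive. It did not pass in any comparison by edgeR's quasi-likelihood test with the main filter and all libraries. It lies on chromosome 2 at 34771970 to 34777547 of GRCm38, forward strand. The level was at 450.4, 420.3 and 366 CPM in wildtype and 461, 435 and 483 CPM in mutant replicates of group 1, and at 398, 321 and 345 for wildtype, 367, 393 and 412 for mutant and 361, 376 and 361 for low-yield mutant libraries of group 2. The groups overlapped throughout. Each mutant library of group 1 was above the wildtype library of the same number, and with the replicate block the log2 fold change there was 0.16 (adjusted p 0.138, SE 0.07). In the group 2 mutant it passed with voom and quality weights (0.23, adjusted p 0.0415), against 0.14 with edgeR. Over both groups of mice the log2 fold change was 0.15 (adjusted p 0.122, SE 0.06). It passed with a minimum mean of 5 CPM (0.0441), with voom and quality weights (0.0184) and without group 2 wildtype replicate 1 (0.0288).

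Hspa8, the constitutive cytosolic Hsp70 (Hsc70), lies on chromosome 9 at 40800984 to 40810087 of GRCm38, forward strand. It was the most variable of the abundant members in group 1, at 2992, 2640 and 2108 CPM in wildtype and 2696, 2372 and 2843 in mutant replicates. The mutant and wildtype libraries overlapped, with a log2 fold change of 0.03 (adjusted p 0.906, SE 0.13). Levels in group 2 were 2575, 2833 and 2698 CPM for wildtype, 2465, 2535 and 3116 for mutant and 2184, 2117 and 2521 for low-yield mutant libraries. The low-yield libraries lay below all wildtype libraries, and the log2 fold change of -0.25 (adjusted p 0.115, SE 0.10) did not pass, except with voom and quality weights (0.0213) and with the replicate block (0.0466). Group 1 wildtype replicate 3 was the lowest library for Hspa8 and the highest for the Hspa1 pair.

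Dnajb1, the inducible Hsp40 that works with the Hspa1 proteins, lies on chromosome 8 at 83608193 to 83612653 of GRCm38, forward strand. It was at 77.4, 81.0 and 90.7 CPM in wildtype and 73.2, 77.0 and 84.0 CPM in mutant replicates of group 1. The group 2 libraries had 81.3, 110.4 and 118 for wildtype, 79.0, 86.9 and 108 for mutant and 69.4, 64.9 and 85.4 for low-yield mutant libraries. In group 1, wildtype replicate 3 was highest in both the Hspa1 pair and Dnajb1. Wildtype replicate 1 of group 2, the group's highest library for the Hspa1 pair, was the lowest wildtype library for Dnajb1, and only that library overlapped the low-yield mutants. The log2 fold change of the low-yield mutant was -0.49 (adjusted p 0.059, SE 0.16), just short of the threshold. It passed with DESeq2 (0.013), with voom and quality weights (0.00883), with only the compared libraries (0.0491), with a block for the replicate number (0.00192), and without wildtype replicate 1, mutant replicate 3 or low-yield replicate 3 (0.00723 to 0.0375). Each mutant library of group 1 was below the wildtype library of the same number. The log2 fold change there was -0.09 (adjusted p 0.512, SE 0.08; 0.413 with the replicate block), and it was -0.18 for the group 2 mutant (adjusted p 0.586, SE 0.15).

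Hsf1, the factor that switches on the inducible genes, lies on chromosome 15 at 76477422 to 76501913 of GRCm38, forward strand, and was called in no comparison by edgeR. Its level was 65.7, 67.1 and 69.9 CPM in wildtype and 69.2, 62.3 and 68.4 CPM in mutant replicates of group 1. In group 2 it ranged from 76.9 to 88.2 CPM in wildtype, 81.7 to 100.6 in mutants and 84.4 to 95.2 in low-yield mutants. The log2 fold changes were -0.02, 0.19 and 0.15, with adjusted p of 0.881, 0.297 and 0.339 by edgeR. In the group 2 mutant it passed with voom and quality weights (0.26, adjusted p 0.0466). Hsbp1, whose product binds Hsf1 trimers and dampens their activity, was the called gene of the list of heat shock factors and regulators in each comparison with wildtype. It was at 40.6, 38.2 and 43.8 CPM in wildtype and 26.4, 32.5 and 29.8 CPM in mutant replicates of group 1. In group 2 it was at 42.8, 37.6 and 42.3 for wildtype, 26.6, 30.2 and 25.9 for mutant and 25.8, 26.5 and 28.8 for low-yield mutant libraries. No mutant library reached the wildtype range. Hsbp1 fell by 0.47 on the log2 scale in group 1 (adjusted p 0.00863, SE 0.10), by 0.57 in the group 2 mutant (adjusted p 0.00464, SE 0.10) and by 0.60 in the low-yield mutant (adjusted p 0.00176, SE 0.10), and every alternative kept these calls.

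Hspb1, the small heat shock protein Hsp27 that holds unfolded proteins in solution, lies on chromosome 5 at 135887919 to 135889563 of GRCm38, forward strand, and was at or near 0. Its count was 0 in 10 of the 15 libraries, which allows up to 3 counts in each, and the gene did not pass the filter on low counts. Group 1 wildtype replicate 3, the library highest in the Hspa1 pair, held 67 counts (1.15 CPM), and no other library more than 9. The windows of Hspb1 are shared with the pseudogene Hsp25-ps1 at 36.5%, so even these counts are uncertain. Of the other 9 small heat shock protein genes, 2 passed the filter in group 1 and 3 in group 2, and 0 were called in any comparison with wildtype.

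Counted together, 9 of the 10 members passed the filter on low counts. In group 1, 2 of 9 were called, Hspa9 and Hsp90ab1, both higher, where 12.6% of all 14048 tested genes were called and 5.79% were called higher; with the replicate number as a block the same 2 were called, beside 2863 in place of 1766 genes overall. The median log2 fold change of the members was 0.06, against 0.01 over all tested genes. For the group 2 mutant 1 of 9 was called, Hspa9, higher, where 6.27% of 15024 genes were called and 3.32% were called higher. The median over the members was 0.19, against -0.01 over all tested genes. For the low-yield mutant again 1 of 9 was called, Hspa9, higher, where 1884 of 15024 genes were called and 6.68% were called higher. The median over the members was 0.03, against -0.0035 over all tested genes. Over both groups of mice 2 of 9 were called, both higher, where 19.6% of 15954 genes were called and 9.8% were called higher, and the median was 0.15 against -7.01e-04. These are counts of 1 or 2 genes chosen with earlier results known, and nothing is read from them about the members as a set. The 2 comparisons of group 2 with wildtype share the wildtype libraries.

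**Figure D5:**
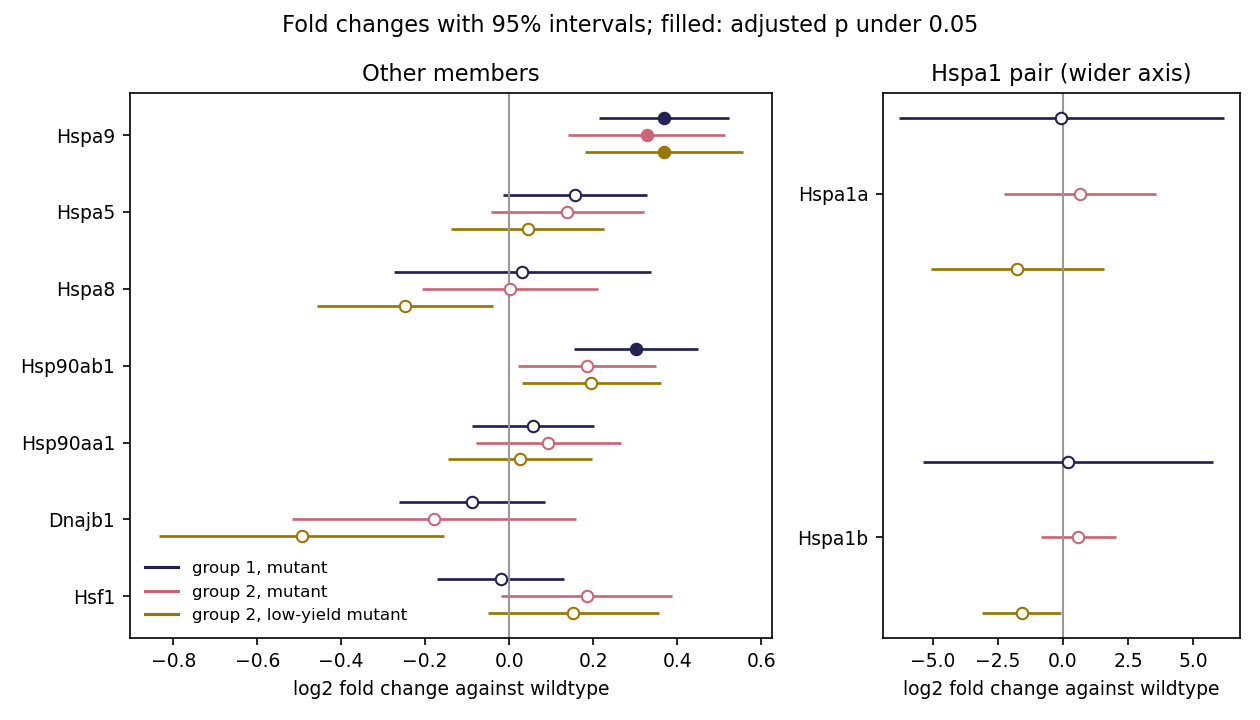
Log2 fold change against wildtype (points) with 95% intervals (lines) for the 9 tested members in 3 comparisons; filled points have an adjusted p under 0.05. Hspa9 is filled in all 3 and Hsp90ab1 in group 1, and the intervals of the Hspa1 pair are drawn on a wider axis.

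Low-yield mutants and other mutants of group 2 were compared directly. None of the 9 members was called by edgeR, where 0% of 15024 genes were called; 480 genes had an unadjusted p under 0.05, DESeq2 called 6 and voom with quality weights 0. The log2 fold changes were 0.04 for Hspa9 (SE 0.09, 95% interval -0.15 to 0.23) and 0.01 for Hsp90ab1 (SE 0.08, interval -0.15 to 0.18). The largest log2 fold changes were those of the Hspa1 pair given above, followed by Dnajb1 at -0.32 (SE 0.16) and Hspa8 at -0.25 (SE 0.10). A difference of the mutant's effect between the groups of mice was called for 0 of the 9 members by edgeR, where 0.0188% of 15954 genes were called, 342 genes had an unadjusted p under 0.05, and DESeq2 called 13. For Hspa9 the difference between the effects in the 2 groups of mice was -0.02 (SE 0.13) and for Hsp90ab1 -0.10 (SE 0.11).

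The wider chaperone system was described with lists of pathway genes, whose counts stand beside 12.6%, 6.27% and 1884 of 15024 of all tested genes called in group 1, the group 2 mutant and the low-yield mutant. Mitochondrial chaperones and proteases had 1 of 16 genes called in each comparison with wildtype, Hspd1, the chaperonin Hsp60, which folds imported proteins downstream of Hspa9. Hspd1 was at 2331, 2188 and 2161 CPM in wildtype and 3065, 2599 and 2985 CPM in mutant replicates of group 1. Levels in group 2 were 1287, 1129 and 1227 for wildtype, 1601, 1459.9 and 1673 for mutant and 1541, 1659.9 and 1534 for low-yield mutant libraries, with no overlap of wildtype and mutants. It rose by 0.37 in group 1 (adjusted p 0.00697, SE 0.07) and by 0.38 in each kind of group 2 mutant (adjusted p 0.0119 and 0.00658, SE 0.08 in each). Leaving out 1 library ended the call without mutant replicate 3 in group 1 (0.0518), without wildtype replicate 2 or mutant replicate 3 for the group 2 mutant (highest 0.0814) and without low-yield replicate 2 for the low-yield mutant (0.0511). Its partner Hspe1 was not called. The median of the list was 0.04, 0.0046 and 0.02 in these 3 comparisons.

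Chaperones of the endoplasmic reticulum and genes of the unfolded protein response had 5 of 27 called in group 1, all higher, with a median of 0.12. They were Hyou1, an Hsp70-like partner of Hspa5, with 0.45 (adjusted p 0.00135, SE 0.07), Sdf2l1, P4hb, Calr and Pdia3. In group 2 Hyou1 was the called gene of the list, with 0.45 in the mutant (adjusted p 0.0236, SE 0.11) and 0.52 in the low-yield mutant (adjusted p 0.00636, SE 0.11). The call in the group 2 mutant was lost without any 1 of wildtype replicates 2 and 3 and mutant replicates 1 and 3 (highest adjusted p 0.119). Hyou1 was at 139 to 151 CPM in wildtype against 184 to 207 in mutants of group 1, and at 231 to 299 in wildtype, 306 to 377 in mutants and 331 to 389 in low-yield mutants of group 2, with no overlap. In the fit of both groups of mice Hyou1 led the genes called higher, and Sil1, a co-chaperone of Hspa5, was called lower (-0.28, adjusted p 0.0189, SE 0.08). Of the stress markers of this pathway, Ddit3 and Atf4 were not called in any comparison with wildtype. Of the 22 genes of this list in the promoter table, 7 held the ER stress element: Calr, Canx, Creld2, Dnajc3, Hsp90b1, Pdia6 and Syvn1.

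Cytosolic partners of Hsp70 had 3 of 23 genes called in group 1, 2 of 23 in the group 2 mutant and 4 of 23 in the low-yield mutant, with medians of 0.04, 0.05 and -0.01. Dnajb2, an Hsp40 that passes substrates to the proteasome, fell in all 3, from 12.3 to 16.3 CPM in wildtype to 7.01 to 9.31 in mutants of group 1, and from 15.9 to 22.1 CPM in wildtype to 7.67 to 8.94 in mutants and 7.35 to 8.43 in low-yield mutants of group 2. Its log2 fold changes were -0.82 (adjusted p 0.00559, SE 0.15), -1.27 (adjusted p 3.79e-04, SE 0.16) and -1.31 (adjusted p 1.39e-04, SE 0.15), called under every alternative. Dnajc7, an Hsp40 that binds both Hsp70 and Hsp90, rose by 0.43 (adjusted p 0.00373, SE 0.07), 0.39 (adjusted p 0.0297, SE 0.10) and 0.48 (adjusted p 0.0049, SE 0.10). The call of Dnajc7 in the group 2 mutant was lost without wildtype replicate 2 or 3 or mutant replicate 1 or 3, with adjusted p up to 0.144.

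Of the list of inducible heat shock genes, 2 of 14 tested genes were called in group 1, Hspd1 higher and Dedd2 lower (-0.33, adjusted p 0.0172, SE 0.08), with a median of 0.06. In the group 2 mutant 1 was called, Hspd1, with a median of 0.06, and in the low-yield mutant 3 were called, Hspd1 higher, and Dedd2 (-0.53, adjusted p 0.0137) and Hspa4l (-0.41, adjusted p 0.0452) lower, with a median of -0.09. The Dedd2 call in group 1 was lost without any 1 library other than mutant replicate 2, with adjusted p up to 0.0756, and that in the low-yield mutant without wildtype replicate 2 or 3 or low-yield replicate 1 or 2 (up to 0.0804). Hspd1 is also a gene of the mitochondrial list. Hsp90 co-chaperones had 1 of 17 genes called in group 1 and 1 of 17 among low-yield mutants, each time Ahsa2, a relative of the Hsp90 activator Ahsa1, with -0.31 and -0.39. The first of these calls was lost without wildtype replicate 2 (adjusted p 0.0793), the other without wildtype replicate 2 or 3 or low-yield replicate 1 or 2 (up to 0.142). In the group 2 mutant 0 of 17 were called by edgeR. With both groups of mice in 1 fit 5 of 17 were called, where 19.6% of all tested genes were. Ahsa2, Fkbp5 and Cdc37l1 were lower, and Chordc1 and Tomm70a, a receptor of the mitochondrial outer membrane (0.21, adjusted p 0.0127, SE 0.06), were higher. Of the chaperonin TRiC and prefoldin, which fold actin and tubulin, 1 of 14 was called in group 1, Cct8, with 0.24 (adjusted p 0.0453, SE 0.07), which passed in 1 of the 6 fits with a library removed and failed in edgeR's legacy mode; 13 of the 14 had a log2 fold change above 0, with a median of 0.11. In group 2, 0 of 14 were called in either kind of mutant by edgeR, with medians of 0.12 in each, and Cct8 had adjusted p of 0.159 and 0.095. With both groups of mice in 1 fit 2 of 14 were called, Cct8 and Cct2, both higher.

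Of 7 genes tied to the guarding of Gata1 by Hsp70, 1 was called in group 1, 1 in the group 2 mutant and 3 in the low-yield mutant, all lower. Gata1 was at 208, 213 and 206 CPM in wildtype and 239, 214 and 237 CPM in mutant replicates of group 1, with a log2 fold change of 0.14 (adjusted p 0.168, SE 0.06). The group 2 libraries had 347 to 384 CPM in wildtype, 348 to 407 in mutants and 377 to 391.5 in low-yield mutants. Xpo1, the exporter that carries Hsp70 out of the nucleus, gave 0.05, 0.11 and 0.16 and was not called. Epor, the receptor of erythropoietin, fell by 0.40 in group 1 (adjusted p 0.00188, SE 0.06), by 0.34 in the group 2 mutant (adjusted p 0.023, SE 0.08) and by 0.45 in the low-yield mutant (adjusted p 0.00232, SE 0.08). Stat5b, which signals from that receptor, fell by 0.30 in the low-yield mutant (adjusted p 0.0355). The call of Epor in the group 2 mutant was lost without wildtype replicate 2 or any 1 of the mutant replicates (adjusted p up to 0.107).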

How the data were processed

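RNA from 15 libraries was sequenced as 151 bp paired ends, per the labels' protocols. The submitters' processing notes name cutadapt 2.3, STAR 2.7.8a and RSEM 1.3.3 with build GRCm38; neither the annotation release nor strandedness is given in the sources used here. The authors deposited unnormalised expected counts for each gene, which were rounded to whole numbers. Libraries were grouped by their titles. Rows of reporter sequences, with 4 counts in group 1 and 1 in group 2, were left out, and 0 value columns lacked a library. The test was the robust quasi-likelihood one of edgeR 4.0.16 (R 4.3.3), two-sided, after TMM scaling and filterByExpr, with p adjusted by Benjamini-Hochberg over every gene tested and a threshold of 0.05, below which a gene is said to be called. Group 2 tests used 1 fit over its 9 libraries. CPM were computed from TMM library sizes, and CPM per kb from the longest coding transcript of GENCODE M21. Alternatives were DESeq2 1.42.0, RLE scaling, other filters, limma 3.58.1 voom with quality weights, the replicate number as a block, the Hspa1 genes summed, the compared libraries alone, each library left out, and edgeR's legacy mode, which was added after seeing the data.

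The members and lists were chosen with earlier results of these data known. Named were all members, the called gene with the smallest p in each direction of each list and comparison, Rpl5, and the 5 genes most like the Hspa1 pair; other names are examples chosen after their values were seen. Same-numbered libraries of group 1 deviated together (r 0.44, 0.19 and 0.15 across genes), although wildtype 3 and mutant 2 also did so (0.23). In group 2, r was 0.24, 0.17 and 0.02 for wildtype and mutant and 0.08, -0.07 and 0.02 for wildtype and low-yield mutant. Wildtype and mutant replicates 1 and 2 there were as alike as some same-numbered libraries of group 1, and the others at most weakly. The main tests did not pair libraries in either group of mice. The replicate block was an alternative only, and in group 2 it rests mostly on a shared number. No 2 libraries of the same group agreed within sampling noise (chi-square per degree of freedom at least 20.1). The fitting scripts were tested on simulated data. The result of 1 gene is not reported here.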

Additional observations from a re-analysis of the deposited data

How the results depend on the processing

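The count of called members moved with the processing. For the group 2 mutant it was 1, and 4 with voom and quality weights (Hspa5, Hspa9, Hsp90ab1 and Hsf1), 0 with the compared libraries only, and 0 to 1 when 1 library was left out. For the low-yield mutant it was 1, and 2 with DESeq2, 4 with voom, 3 with the replicate block, 2 with the compared libraries only, and 0 to 2 when 1 library was left out. In group 1 it was 2, and 1 to 2 when 1 library was left out. Over both groups of mice it was 2, and 3 with a mean CPM of at least 5, with voom and without group 2 wildtype replicate 1, each time with Hspa5 added, and without group 1 wildtype replicate 1, where Hspb1 passed the filter on low counts and was called (-3.14, adjusted p 0.0412). The replicate block changed no call of a member in group 1 or over both groups of mice, and in the low-yield mutant it added Hspa8 (adjusted p 0.0466) and Dnajb1 (0.00192). Of 447 fold changes of members under alternatives other than leaving out a library, 434 kept their side of the threshold, 1 was lost and 12 were gained; with 1 library left out, 496 of 513 did, 13 were lost and 4 gained, Hspb1 not counted. No called fold change changed sign, while 11 and 46 uncalled ones did. Over all tested genes, the count in group 1 went from 1766 to 2863 with the replicate block and to 753 to 1168 without wildtype replicate 1, 2 or 3 or mutant replicate 3. For the group 2 mutant it went from 942 to 1452 with DESeq2, 2000 with voom and 425 to 480 without wildtype replicate 2 or 3 or mutant replicate 1 or 3. For the low-yield mutant it went from 1884 to 3399 with voom and 900.0 to 1153 without wildtype replicate 2 or 3 or low-yield replicate 1 or 2. Between the mutants it went from 0 to 22 without low-yield replicate 3 and to 6 with DESeq2, and for the interaction from 3 to 13 with DESeq2 and 5 with the replicate block. The cause was not tested. Hspb1, with at most 67 counts in a library, is the member whose values few counts limit most.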
